A study of Homo sapiens with 4 samples.

Results

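The short arm of chromosome 6 carries, at band 6p22, a cluster of genes that encode SCAN-domain zinc finger proteins. The 9 described here are ZSCAN16, ZKSCAN8, ZSCAN9, ZKSCAN4, ZSCAN26, ZSCAN31, ZKSCAN3, ZSCAN12 and ZSCAN23. They were chosen by name, as the ZSCAN and ZKSCAN genes listed for a window of 600 kb of chromosome 6 (hg19, chr6:27900001-28500000). They are 9 of 566 zinc finger genes recognised by symbol and of 20162 protein-coding genes. ZNF165, a SCAN-domain gene of the same window, has another kind of symbol and is described with the neighbours. The mark was trimethylation of lysine 20 of histone H4 (H4K20me3), mapped by ChIP-seq (sequencing of DNA bound to chromatin that an antibody pulls down) in IMR90, a line of diploid human lung fibroblasts that stops dividing after long culture. Proliferating cells (PRO) were at population doubling 32, and cells in replicative senescence (RS) were at population doubling 86. Each state was profiled with 2 antibodies, Ab1 and Ab2, and the labels name no transgene or drug in either state. The authors deposited 1 list of peaks found with both antibodies for each state, plus 1 list of regions that DiffBind called different between the states. That list gives no direction of change. The lists hold positions alone, so levels, read depth and replicate spread were not used here, and apart from the authors' DiffBind calls no test between PRO and RS was made.

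The SCAN domain is a vertebrate module through which these proteins pair with each other, and the C2H2 zinc fingers that follow it bind DNA. Members named ZKSCAN also carry a KRAB domain, and whether theirs recruits co-repressors was not examined here. In many zinc finger proteins a KRAB domain recruits the co-repressor TRIM28 and, through it, enzymes that methylate lysine 9 of histone H3. H4K20me3 is laid down downstream of that mark by SUV420H enzymes and is typical of silent chromatin. The ends of zinc finger genes that encode the fingers are repetitive in sequence and are known in several cell types as sites of such heterochromatin. Among the members, ZKSCAN3 is known as a repressor of autophagy and lysosome genes.

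Few of the members were touched by a peak in either state. No PRO peak touched any of the 9 gene bodies, against 3.97% of all coding genes and 29.9% of zinc finger genes. RS peaks touched 2 of 9 (22.2%), ZSCAN31 and ZSCAN12, against 21% of all coding genes and 64.5% of zinc finger genes. By this count the members' share was near that of coding genes in general and below that of their own family. The count was not matched for length. Median lengths were 17.6 kb for the members, 25.8 kb for zinc finger genes and 27.2 kb for coding genes. A gene without a peak is not shown to lack the mark. DiffBind regions touched 1 of 9 (11.1%), ZSCAN31, against 18.3% of coding genes and 55.8% of zinc finger genes. RS peaks held 3202 of the bases of the 9 bodies, or 2.09% of their summed 153 kb, compared with 17.1% over all zinc finger genes and 1.04% over all coding genes. The median share of a gene body in RS peaks was 0 for the members, 11.6% for zinc finger genes and 0 for coding genes. These counts describe 1 list for each state and were not tested. According to the study, the peaks of its antibodies overlapped far more in RS than in PRO, and both lists keep only shared peaks.

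**Figure D1:**
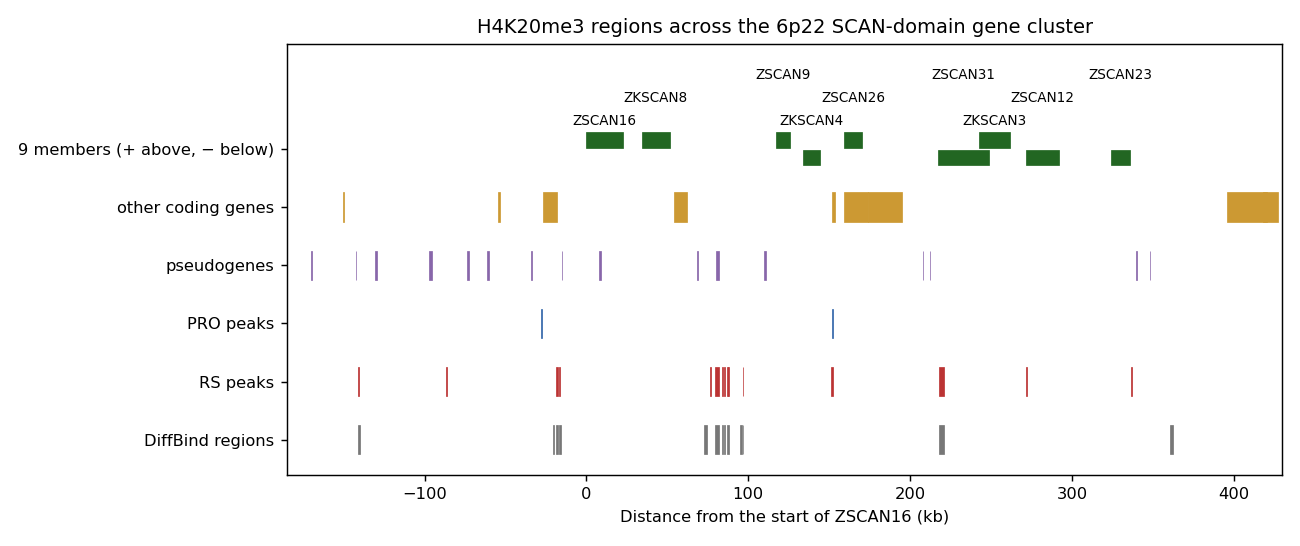
Positions of the 9 members, other coding genes, pseudogenes and the regions of the 3 lists, in kb from the start of ZSCAN16. Each bar is a gene or a region drawn to scale apart from a thin outline, with plus-strand members above minus-strand members. The 7 RS peaks between ZKSCAN8 and ZSCAN9 touch no member, and the broad RS peak that does lies in ZSCAN31.

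ZSCAN31 (ENSG00000235109.8, chr6:28292470-28324048, minus strand) was the only member with a broad peak. Its body of 31.6 kb held 1 RS peak of 2801 bp at chr6:28293601-28296401, or 8.87% of the gene. The DiffBind list held a region with the same start and end, and no PRO peak lay within 64.9 kb of the gene. The peak sat near the 3′ end, 1.13 kb before the end of the gene, and began 27.6 kb from its start. That start and the 8.87% belong to the gene as annotated over 19 transcripts. The canonical transcript starts 20.1 kb into the gene and contains the whole peak, which makes up a larger share of it. It contained 1031 of the 2118 bases of the last exon (48.7%), 837 of 1218 coding bases, 345 bases of 3′ UTR and 1619 bases of introns of the canonical transcript. All 6 zinc fingers of the protein were encoded inside it, so the finger array of 483 bp was covered in full. The start of the array is printed here because it is what the peak covered. It shows fingers 1 and 2 in the coding direction (minus strand, GRCh37, chr6:28294276-28294443, 168 bases), with the codons of the conserved linker that joins neighbouring fingers in capitals.
ZSCAN31 fingers 1 and 2: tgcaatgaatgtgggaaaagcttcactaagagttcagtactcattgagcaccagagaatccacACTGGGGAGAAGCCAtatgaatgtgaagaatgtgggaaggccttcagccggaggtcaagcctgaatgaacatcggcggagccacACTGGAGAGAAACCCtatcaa
The same linker is written with slightly different codons at its 2 occurrences, and arrays of such fingers are found in every member. Of the 2801 bases of the peak, 86 began a 75-base window found again elsewhere in the genome. All 86 lay in introns and 0 in exons, so the finger array itself held no repeated window of that length.

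ZSCAN12 (ENSG00000158691.15, chr6:28346732-28367524, minus strand), which encodes 11 fingers and has the longest array of the cluster at 984 bp, was touched by a short RS peak only. The peak of 401 bp at chr6:28347001-28347401 made up 1.93% of the gene body. It held 0 bases of the finger array and 0 coding bases. It lay 0.268 kb before the 3′ end of the annotated gene and outside the canonical transcript, which ends sooner. The exons of 2 of 3 annotated transcripts contain it, as non-coding sequence. The peak matched 165 other places in the 600 kb window in alignments of at least 200 bp, which together covered 80.0% of it, and 10.2% of its 75-base windows recurred elsewhere in the genome. No DiffBind region lay within 50.3 kb of ZSCAN12, and the nearest PRO peak was 119 kb away. ZSCAN12 was therefore counted as overlapped through a short stretch of multicopy sequence, while its fingers were not in any list.

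ZSCAN23 (ENSG00000187987.10, chr6:28399707-28411279, minus strand, 5 fingers) had a short RS peak beside its start in place of its body, 0.921 kb away. It was the only region of any list within 2 kb of the start of a member. No DiffBind region overlapped it, and the nearest DiffBind region was 24.9 kb from the gene. The nearest PRO peak was 172 kb away, the longest such distance of the 9 members.

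**Figure D2:**
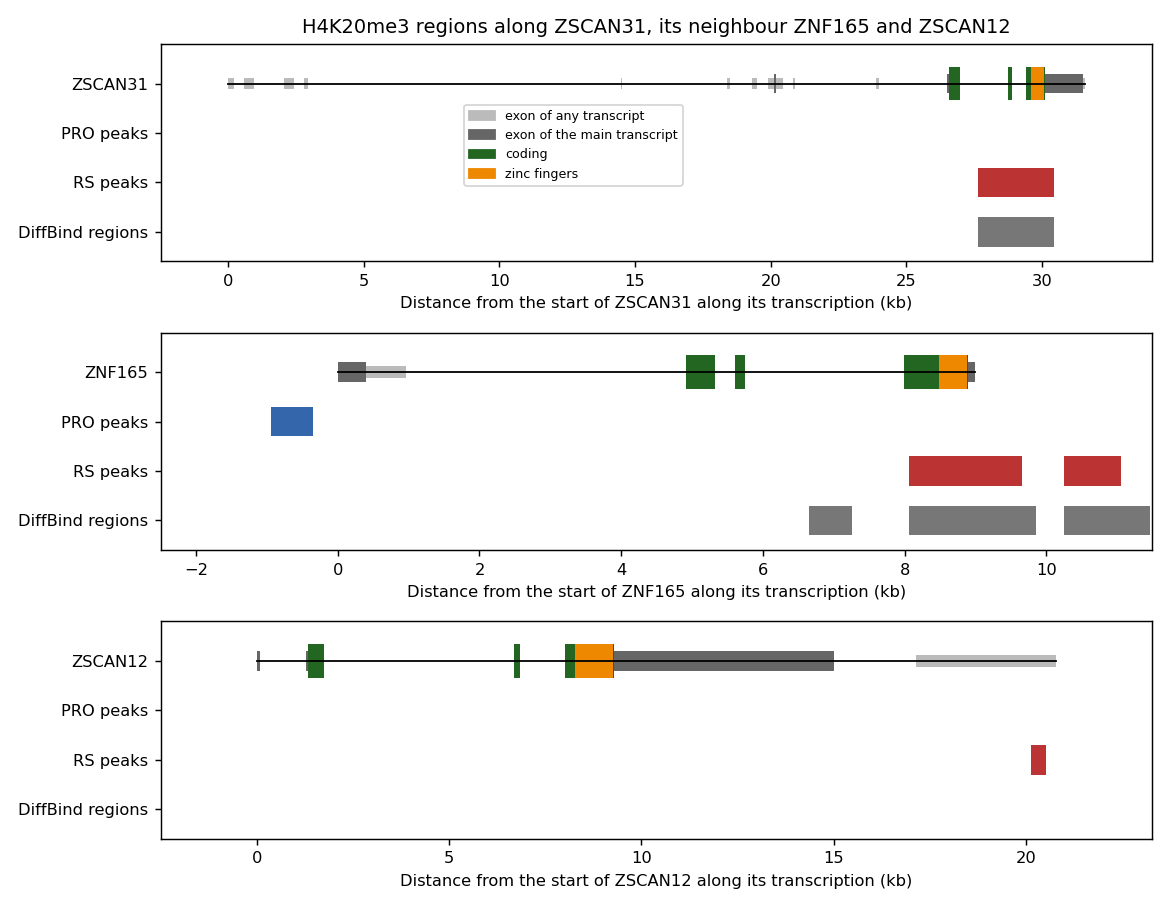
Gene models of ZSCAN31, the neighbouring ZNF165 and ZSCAN12 with the regions of the 3 lists, in kb from each gene's start along its transcription. In ZSCAN31 and ZNF165 the RS peak spans all fingers (6 and 5), whereas in ZSCAN12 it lies beyond the end of the canonical transcript.

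The other 6 members had no RS peak in the body or within 2 kb of the start. ZKSCAN4 (ENSG00000187626.9, chr6:28209475-28220047, minus strand, 7 fingers) was 6.35 kb from the nearest RS peak and 6.95 kb from a PRO peak. ZSCAN26 (ENSG00000197062.12, chr6:28234836-28246001, plus strand, 7 fingers) was 7.23 kb from both. For both genes the nearby peaks were those at the start of NKAPL, a single-exon gene between them. ZKSCAN3 (ENSG00000189298.14, chr6:28317724-28336949, plus strand, 7 fingers) overlaps the first part of ZSCAN31 on the opposite strand, yet the RS peak of ZSCAN31 lies at the other end of that gene. The nearest RS peak to ZKSCAN3 was 10.1 kb away, the short peak inside ZSCAN12.

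The remaining 3 members lay on either side of a gap in the cluster. ZSCAN16 (ENSG00000196812.6, chr6:28075467-28097860, plus strand, 4 fingers) was 16.1 kb from an RS peak near ZNF165. ZSCAN9 (ENSG00000137185.13, chr6:28192664-28201265, plus strand, 5 fingers), the shortest member at 8.60 kb, was 20.3 kb from an RS peak in that gap. ZKSCAN8 (ENSG00000198315.11, chr6:28109661-28127238, plus strand, 9 fingers) was the farthest, at 24.6 kb. Across the 7 members without an overlap the distance from the body to the nearest RS peak was 0.921 to 24.6 kb with a median of 10.1 kb.

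Within 10 kb of the body, 5 of 9 members had an RS peak, 2 a PRO peak and 1 a DiffBind region. The shares of zinc finger genes at that distance were 71.2%, 39.4% and 62.2%. Within 50 kb the members' counts were 9 for RS, 4 for PRO and 8 for DiffBind, against 85.2%, 54.6% and 80.6% of zinc finger genes. Over all coding genes the shares within 10 kb were 29.7% for RS, 5.80% for PRO and 25.8% for DiffBind. Within 50 kb they were 55.7% for RS and 49.9% for DiffBind, and 2215 of 20162 coding genes had a PRO peak. The members' 9 of 9 within 50 kb in RS stood near the share of their family. The order of the members by distance differed between lists. ZSCAN12 touched an RS peak but was the farthest of the 9 from a DiffBind region, at 50.3 kb, whereas ZSCAN16 and ZKSCAN8 were closer to a DiffBind region (15.7 and 21.2 kb) than to an RS peak.

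**Figure D3:**
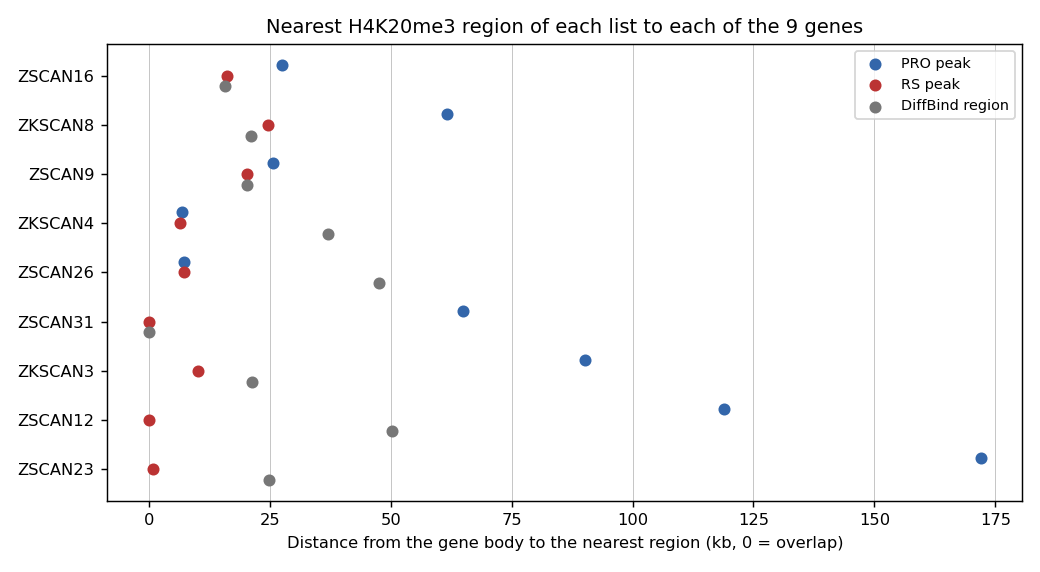
Distance in kb from the body of each of the 9 members to the nearest region of each list, with 0 for an overlap. RS points lie between 0 and 24.6 kb, and PRO points spread from 6.95 to 172 kb.

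The 2 members with an RS peak did not stand apart from the other 7 in most measured features of sequence. GC content was 41.1% and 41.3% in the overlapped genes and ranged from 38.6% to 45.0% in the 7 others. ZSCAN31 encodes 6 fingers and ZSCAN12 encodes 11, against 4 to 9 in the others. The ratio of observed to expected CpG sites was 0.187 to 0.307 over all 9 members, and 0.226 in ZSCAN31. Between 0.0233% and 1.88% of the 75-base windows of a member recurred elsewhere in the genome. ZKSCAN3 and ZKSCAN4 were the closest relatives, with 90.5% identity over 1608 aligned coding bases, and 3.72% and 3.70% of their finger arrays began a repeated window. Where in the genome those windows recur was not examined, and neither gene was in any list. The other 35 pairs of members ranged from 62.4% to 70.3% identity in coding sequence.

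Counting finger arrays in place of whole genes gave the same picture for RS peaks and DiffBind regions. RS peaks covered 483 of 5178 array bases of the members (9.33%), all in ZSCAN31, so that 1 of 9 arrays (11.1%) was touched. Over the 545 zinc finger genes with an array, 46.2% of arrays were touched by RS peaks and 40.1% of array bases were covered. DiffBind regions touched 1 of 9 member arrays and 38.2% of all arrays. PRO peaks touched 0 of 9 member arrays and only 3.30% of all arrays, compared with 29.9% of the bodies of zinc finger genes. Across RS peaks on the main chromosomes, 778 of 35534 (2.19%) could be translated into at least 1 finger pattern in any frame. In the window of the cluster 3 of 15 RS peaks did so, those at ZSCAN31, ZNF165 and the pseudogene ZKSCAN8P2, and all 3 were also in DiffBind regions.

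Member bodies and the rest of the window were covered to a like extent by RS peaks, but not by DiffBind regions. RS peaks covered 2.30% of the window, 2.18% of the 147 kb in member bodies and 2.34% of the other 453 kb, compared with 0.971% of chromosome 6 and 1.33% of the genome. Member bodies made up 24.5% of the window and held 23.2% of its RS bases, with 2801 of their 3202 RS bases in ZSCAN31. They held 15.7% of its DiffBind bases. DiffBind regions covered 1.90% of member bodies and 3.32% of the rest of the window, and PRO peaks covered 0 and 0.265%. The 65.4 kb between ZKSCAN8 and ZSCAN9 held 7 of the 15 RS peaks and 42.0% of the RS bases. The same gap held 7 of 13 DiffBind regions and no PRO peak. Of those 7 RS peaks, all but the peak at ZKSCAN8P2 matched between 116 and 164 other places in the window in alignments of at least 200 bp. The part of multicopy sequence in these peaks was not tested.

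ZKSCAN8P2, annotated as an unprocessed pseudogene and named after ZKSCAN8, lay in this gap and was covered almost in full. An RS peak of 2201 bp at chr6:28155001-28157201, with the same bounds in the DiffBind list, covered 1374 of the 1383 bases of the pseudogene (99.3%). ZKSCAN8 itself had 0 bases in any list. The 2 sequences aligned over 750 bases, of which 525 (70.0%) were identical. All 9 members matched the peak, and ZKSCAN8 was the best match, at 69.8% over 752 bp. Some pairs of members were about as close over their coding sequences, such as ZSCAN16 and ZKSCAN8 at 69.9%. The ZNF165 peak also had ZKSCAN8 as its best match, at 74.8% over 424 bp. Whether ZKSCAN8P2 derives from ZKSCAN8, as its name implies, was not tested. No 75-base window of the peak recurred elsewhere in the genome. The pair is printed to show a covered finger sequence beside the matching uncovered stretch of a member. These are the first 150 bases of the longest ungapped stretch, all of them from the finger array of ZKSCAN8, with the 48 mismatches in capitals in both (plus strand, GRCh37, chr6:28155994-28156143 and chr6:28121146-28121295).
ZKSCAN8P2: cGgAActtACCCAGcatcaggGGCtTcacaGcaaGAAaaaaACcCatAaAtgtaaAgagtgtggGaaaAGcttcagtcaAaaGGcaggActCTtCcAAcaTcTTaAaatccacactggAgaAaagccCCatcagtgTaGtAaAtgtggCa
ZKSCAN8: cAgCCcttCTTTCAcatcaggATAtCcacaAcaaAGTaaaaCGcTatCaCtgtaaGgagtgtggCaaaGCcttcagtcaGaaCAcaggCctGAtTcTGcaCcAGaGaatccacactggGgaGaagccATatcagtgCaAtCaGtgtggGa
Mismatches are scattered along the whole stretch. ZKSCAN8P1, also in the window and annotated as coding, had 0 bases in any list.

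Neighbours on 6p22 were compared next, without a test. The other 9 coding genes of the window gave the same counts as the members, 2 touched by RS peaks (22.2%, 1.63% of bases) and 1 by DiffBind regions (11.1%), with 1 touched by a PRO peak. The 7 zinc finger or SCAN-domain genes listed as neighbours, some of them outside the window, gave higher counts for RS. ZNF165 (chr6:28048346-28057341, plus strand), a SCAN-domain gene of the same window known as a cancer-testis antigen, resembled ZSCAN31 in where the mark lay. An RS peak held 941 bases of its body (10.5%), 94.0% of its last exon and all 5 fingers. DiffBind regions held 17.1% of it, and a PRO peak lay 0.344 kb upstream of its start without touching it. Farther from the cluster, ZNF322, ZNF184 and ZNF391 had 34.6%, 33.1% and 15.7% of their bodies in RS peaks. PGBD1, SCAND3 and ZNF311 had none. In all, 4 of these 7 neighbours touched RS peaks, 4 touched DiffBind regions and 1 touched a PRO peak.

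The other genes named ZSCAN or ZKSCAN gave higher counts. Of these 20, which include ZKSCAN8P1 in the same window, 10 (50.0%) touched RS peaks, 9 (45.0%) DiffBind regions and 7 (35.0%) PRO peaks. RS peaks covered 17.0% of their bases, with the highest share, 75.7%, in ZSCAN18 on chromosome 19. Of the 20 genes, 10 were at 0 like most of the 6p22 members. The sets compared here share genes. ZKSCAN7 is also counted at 3p21-p22, and ZSCAN10 and ZSCAN32 are also counted at 16p13.3. In the cluster of 8 zinc finger genes at 3p21-p22 all 8 shared at least 1 base with RS peaks. Their RS shares ran from 0.00218% of the body in ZNF445 to 73.9% in ZNF502. ZNF445 was counted through 1 base only. DiffBind regions touched 3 of these 8 (37.5%). At 16p13.3, 5 of 9 (55.6%) touched RS peaks, with 97.0% in ZNF75A, and 4 (44.4%) touched DiffBind regions. The zinc finger genes outside chromosome 19 that fall in the length range of the members numbered 146, of which 48.6% touched RS peaks, 17.8% PRO peaks and 41.8% DiffBind regions. The members' shares of 22.2%, 0 and 11.1% were lower than each of these, over only 9 genes that lie side by side and are not independent of each other.

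**Figure D4:**
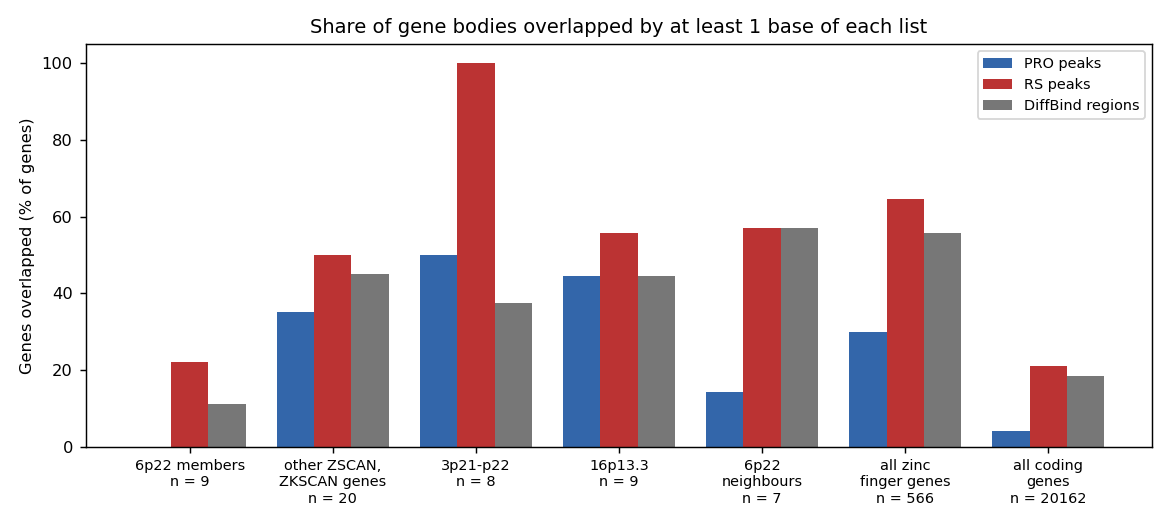
Percentage of gene bodies that share at least 1 base with PRO peaks, RS peaks or DiffBind regions, for the 9 members and the gene sets compared with them. The members have no PRO bar, and their RS bar of 22.2% stands near the 21% of all coding genes. Some genes belong to more than 1 set, and the sets were not matched for gene length.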

How the data were processed

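H4K20me3 ChIP-seq peak lists of PRO and RS IMR90 cells were analysed. According to the study's methods and the submitters' processing notes, the authors aligned reads to hg19 with Bowtie2 (2.1.0), called domains with SICER (1.1; windows and gaps of 200 bp, total histone H4 as control) and intersected both antibodies. They deposited the positions without counts, scores or p-values. The DiffBind (1.8.3) list was cut at a false discovery rate of 0.01. The study names edgeR and DESeq2 in different places for that step, the list is shorter than the study's account of it, and which model made it was not settled here. The PRO, RS and DiffBind lists hold 2836, 35535 and 18711 regions.

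Starts were read as 0-based, as in BED files, and ends as deposited, positions are printed 1-based, and regions were set against GENCODE release 44 mapped to GRCh37, which shares coordinates with hg19 on the main chromosomes. An overlap was at least 1 shared base with the annotated gene. Finger arrays were found by translating the canonical transcript and searching for the C2H2 pattern. For ZSCAN26, whose canonical frame is broken in GRCh37, an intact transcript was used. Copies were sought with blastn (2.17.0, E below 1e-10), and windows of 75 bases were called repeated when found again in the genome. Overlap code was tested on simulated intervals. The named genes were the 9 members, their 6p22 neighbours, the 3p21-p22 and 16p13.3 clusters, and of other lists the genes with the highest or lowest RS share. ZKSCAN8P2, ZKSCAN8P1 and NKAPL were added after their values were seen. Members and lists were chosen with earlier results of these data known. The sequence of 1 peak is not reported here.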

Additional observations from a re-analysis of the deposited data

How the results depend on the processing

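Of 69 values of 9 results under 9 other settings, 57 stayed within 1.5 times the reported value and 12 did not. The 57 include all PRO values, which were 0 under every setting, and an RS count of 3 members that stood at the limit. With regions of at least 600 bp, or of at least 1000 bp, the count of members touched by RS peaks was 1, and it was also 1 with the transcript of longest coding sequence in place of the gene. In each case ZSCAN12 was lost, because its peak is short and lies outside that transcript. Asking for at least 10% of the body, as annotated over all transcripts, gave 0 members for RS and 0 for DiffBind. Dropping regions in which any window of 75 bases recurs in the genome gave 0 members and 0 bases for RS and DiffBind, and 0 for the RS bases in exons, in DiffBind regions and nearer the 3′ end. That setting removes the whole ZSCAN31 peak for 86 repeated windows in introns. Extending genes by 2000 bp upstream added ZSCAN23, for 3 members. All these settings were run on the 9 members alone. Shares of coding and zinc finger genes under them were not computed. The counts can therefore not be set against the shares given earlier, which hold for an overlap of at least 1 base. The PRO count was 0 throughout, but the settings were no test of it. The PRO peak nearest to the body of any member lay 6.95 kb away. No setting reached farther than the 2000 bp upstream, so a PRO count of 0 was fixed in advance. No paired analysis was possible because each state has 1 merged list and no values for each antibody, and for the same reason leaving out an antibody was not run. The lists give no depth, so a gene without a peak is one without an enriched domain found with both antibodies, not one shown to lack the mark.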

Other observations

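The 37 other annotated genes of the window were also mostly outside the lists. The 8 olfactory receptor genes and pseudogenes beside the cluster had 0 in any list. Of 16 pseudogenes, 1 was touched by RS peaks, ZKSCAN8P2. At NKAPL, an RS peak of 1201 bp and a PRO peak of 601 bp shared the start of the gene, with 31.7% of the gene in each, and no DiffBind region was there. It was the only place in the window where PRO and RS peaks overlapped.

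Of the 15 RS peaks in the window, 10 overlapped a DiffBind region and 5 did not, among them those at ZSCAN12 and ZSCAN23. Conversely, 4 of 13 DiffBind regions overlapped no RS peak, and none of these 4 touched a member. A search for the genes whose shares in the 3 lists were most like the members' median was uninformative, since that median was 0 in each list and 13938 of 19001 genes of at least 2 kb (73.4%) tied with it.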
